A study of Mus musculus with 9 samples.

Results

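A set of 33 protein-coding genes was almost without reads in mouse embryonic stem cells that had no auxin and was read at 1 CPM or more after auxin-driven degradation of Suz12. The genes were chosen by a rule on measured levels: a mean under 0.1 CPM in the Mock group and of at least 1 CPM in the Auxin group, with Hox, Tbx, Pax, Fox, Sox, Wnt, Col, Krt, Kcn and Pcdh genes left out. CPM, the normalised read count, is the count of a gene divided by the library total, times 1000000. The rule picked 33 of the 21683 protein-coding genes among the 48440 genes counted, and 7404 protein-coding genes lay under the Mock limit. It left out 5 genes that met both limits but carry one of the family names.

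Every library came from J1 embryonic stem cells of the genotype Suz12-AID, grown on gelatin with leukaemia inhibitory factor and the inhibitors PD0325901 and CHIR99021. AID stands for auxin-inducible degradation: the tagged protein is destroyed while the plant hormone auxin (indole-3-acetic acid) is present. Mock cells carried the same tagged Suz12. Auxin cells had 50 µM auxin for 96 h. Reintroduction cells also had 50 µM auxin for 96 h, which was then washed out for 4.5 h. The labels call the 3 libraries of each group biological replicates and do not say whether they are separate cultures or whether the line is 1 clone.

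PRC2, Polycomb repressive complex 2, puts methyl groups on a lysine of histone H3 at genes that are kept silent, and cannot hold together without its subunit Suz12. In embryonic stem cells PRC2 is known for holding developmental regulators off, most of them at promoters rich in CpG dinucleotides. Such genes include transcription factors, signalling molecules and genes of nerve and muscle, and many of them also need activators that stem cells lack.

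Library totals ran from 44341283 counts in Reintroduction replicate 2 to 113931419 in Mock replicate 1, so that 1 CPM stood for 44.3 to 114 counts and 0.1 CPM for 4.43 to 11.4 counts. Suz12 RNA was at 113, 127 and 128 CPM in the Mock libraries, at 161, 129 and 164 in the Auxin libraries and at 168, 175 and 165 in the Reintroduction libraries. The degron acts on the protein, so RNA does not check the depletion. Of the 36 genes on a list of PRC2 and PRC1 subunits, none was among the 33, and 17 were called higher and 12 lower in Auxin against Mock (edgeR adjusted p under 0.05). Over all genes tested, 38.4% were called higher and 34.8% lower in that comparison. Summed over 12 embryonic stem cell markers, CPM ran from 5770 to 5890 in Mock, from 8050 to 8510 in Auxin and from 6040 to 6120 in Reintroduction.

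Markers of other cell types moved with the groups too. Blood and endothelial markers summed to 69.0 to 71.2 CPM in Mock, 192 to 207 in Auxin and 75.3 to 79.3 in Reintroduction, with Hbb-bh1 and Hba-x at 0 in every library. Endoderm markers summed to 4.86 to 6.37, 23.0 to 24.3 and 13.8 to 15.6 CPM, with Ttr at 0, and trophoblast markers to 72.1 to 75.4, 152 to 167 and 176 to 179 CPM, with Prl3d1 and Prl2c2 at 0. Fibroblast markers summed to 18.2 to 19.6, 45.6 to 52.7 and 39.5 to 40.5 CPM, with Twist2 at 0, and germ cell markers to 30.5 to 32.8, 72.5 to 95.2 and 61.7 to 63.3 CPM. Neuronal markers summed to 310 to 327, 269 to 302 and 237 to 248 CPM, with Dcx at 0, and muscle markers to 35.1 to 37.1 CPM in Mock, 17.0 to 19.8 in Auxin and at most 20.2 in Reintroduction. A sum is carried by its most abundant genes. Of the neuronal markers tested in Auxin against Mock (edgeR), 4 of 9 were called higher and 3 lower, and of the muscle markers none of 8 higher and 7 lower. The same counts were 4 of 6 higher and 1 lower for blood and endothelium, 6 of 6 and 0 for endoderm, 5 of 7 and 2 for trophoblast, 3 of 5 and 1 for fibroblasts and 6 of 7 and 1 for germ cells. None of the 33 genes is on these lists. The part of other cell types in the results was not tested, and in such bulk libraries a few cells with much RNA of a gene cannot be told apart from many cells with little.

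In Mock the 33 genes had 1 to 26 counts each over the 3 libraries together, and none was at 0 in all 3. In Auxin they had 213 to 1769 counts. Summed over the 33 genes, CPM was 1.81, 2.07 and 2.06 in the Mock libraries, 61.4, 62.1 and 63.7 in the Auxin libraries and 23.1, 23.5 and 21.1 in the Reintroduction libraries. The 3 libraries of a group were close to each other in this sum, and the Reintroduction libraries lay between the other groups. The rule fixes the distance of Mock from Auxin, which is given as a description only. The mean in Auxin was from 10.5 times that in Mock for Cited4 to 161 times for Fbln5. Cox6a2 is left out of this range, since its Mock level rests on 1 count. The median over the 33 was 24.1.

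Even in Auxin most of the 33 were weakly expressed. Per kilobase of exon (RPKM) their mean Auxin level ran from 0.0731 for Rnf150 to 8.01 for Adm2, with a median of 0.389. The median gene stood at the 45.2nd percentile of all protein-coding genes by Auxin RPKM. Their exons had a median length of 4361 bases, against 3049 for all protein-coding genes, 3909 for those that passed the count filter and 5009 for the other protein-coding genes called higher in Auxin with at least 1 CPM there. A limit in CPM favours long genes. With the same limits on RPKM, 30 genes met the rule and 4 of them were among the 33.

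**Figure D1:**
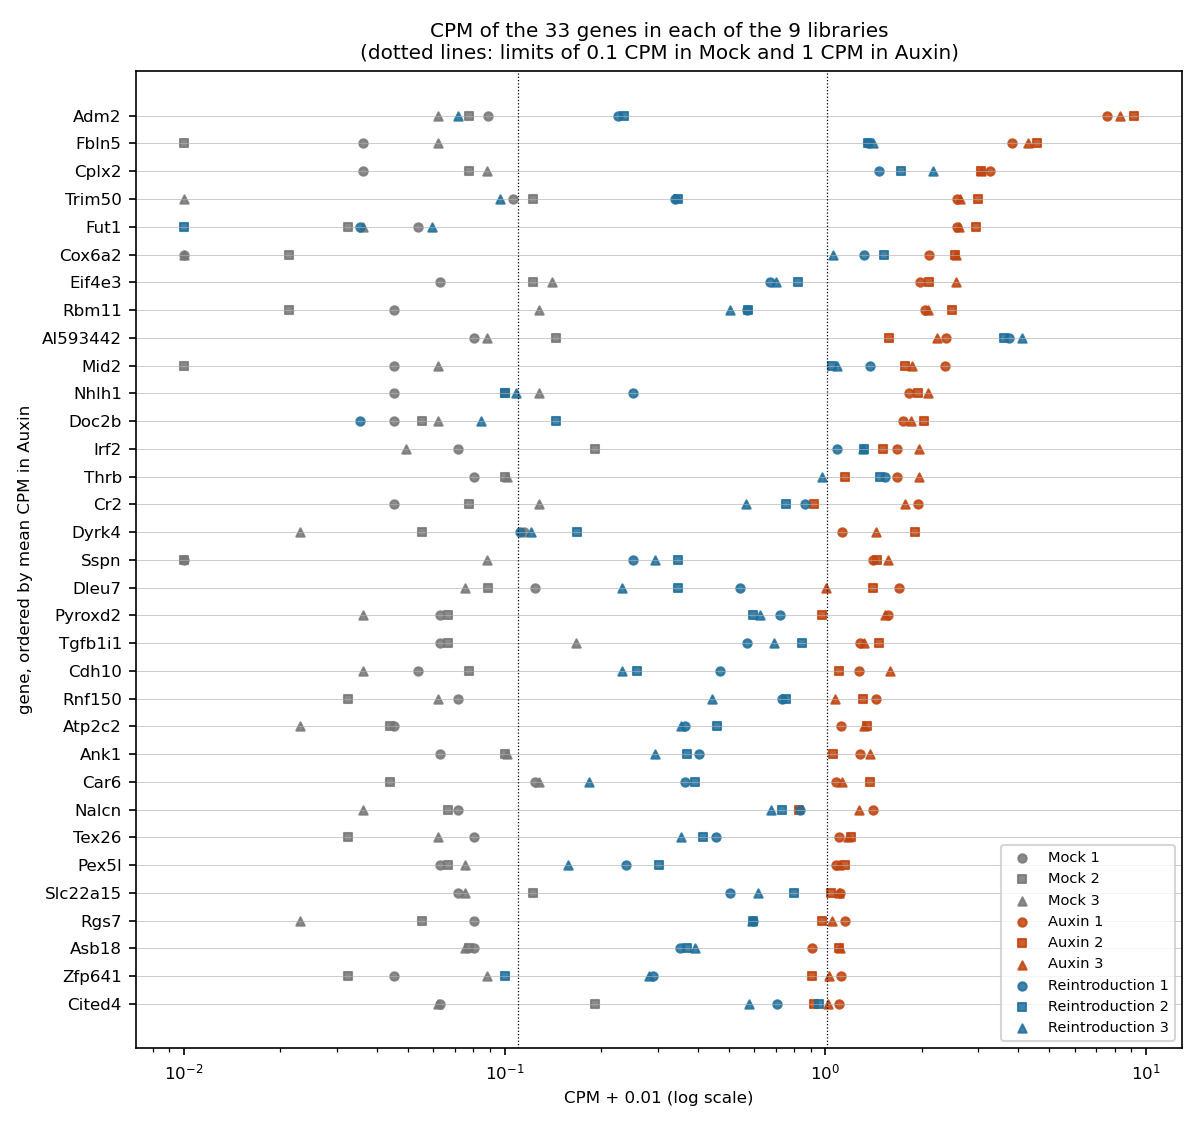
CPM plus 0.01 on a log axis (x) for each of the 33 genes (y, ordered by mean CPM in Auxin) in the 3 Mock, 3 Auxin and 3 Reintroduction libraries, each point 1 library, with the limits of 0.1 and 1 CPM as dotted lines. Reintroduction points lie between Mock and Auxin for most genes, close to the Mock points for Fut1, Nhlh1 and Doc2b, and to the right of Auxin for AI593442.

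How much of the rise remained 4.5 h after washout was measured as the distance of Reintroduction from Mock over that of Auxin from Mock, in CPM and in percent. A share of 0% means a return to the Mock mean and 100% no loss from the Auxin mean. The median share was 30.5%, with quartiles of 18.2% and 54.1%. It ran from -0.22% for Fut1, a sugar-transferring enzyme, to 189% for AI593442, a gene of little studied function. At least 75% of the rise remained in 2 genes (AI593442 and Thrb), 25% to 75% in 17 and less than 25% in 14.

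By edgeR's quasi-likelihood test, with p adjusted over the 20838 genes tested, 28 of the 33 fell from Auxin to Reintroduction, 1 rose and 4 were not called. Over all genes tested 25.5% were called lower. The Auxin libraries served to choose the members, so their Auxin values were picked high. With only the Mock and Reintroduction libraries 26 of the 33 passed the count filter, and the others passed through their Auxin libraries. Against Mock, 27 of the 33 were higher in Reintroduction and none lower, beside 34.7% called higher over all genes tested, and here the Mock values had been picked low. Both limits hold for the fold change and p-value of each single gene below. In 22 genes Reintroduction was both lower than Auxin and higher than Mock. In 6 it was lower than Auxin and not called against Mock, and in 4 it was higher than Mock and not called against Auxin. The Reintroduction libraries lay below every Auxin library in 29 genes, beside 34.5% of all genes tested, and above every Mock library in 27, beside 44.5%.

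Other genes that were higher in Auxin give a base for this share. Among 5440 other protein-coding genes called higher in Auxin with a mean of at least 1 CPM there, the median share was 54.8%. Among the 210 of these with an Auxin mean of at least 10 times Mock it was 34.6%, and among the 120 that also had an Auxin mean of 1 to 9 CPM it was 36.7%. No test was made between these sets and the 33. Just outside the Mock limit, only genes with an Auxin mean over 10 times Mock were considered. Of these, Inhbe, which encodes an activin subunit, was at 0.105 CPM in Mock, 15.8 in Auxin and 0.136 in Reintroduction. Rbm24, an RNA-binding protein of muscle, was at 0.1, 2.11 and 0.506 CPM, and Cbfa2t3, a transcriptional corepressor, at 0.11, 1.1 and 0.175 CPM. Just under the Auxin limit, Gm960 was at 0.99 CPM, Pde1c, a phosphodiesterase, at 0.985 and Cct8l1 at 0.961, against 1.0 CPM for Cited4, 1.01 for Zfp641 and 1.03 for Asb18 just inside it. The innermost genes at the Mock limit were Eif4e3 at 0.0987, Cited4 at 0.0952 and AI593442 at 0.0947 CPM.

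**Figure D2:**
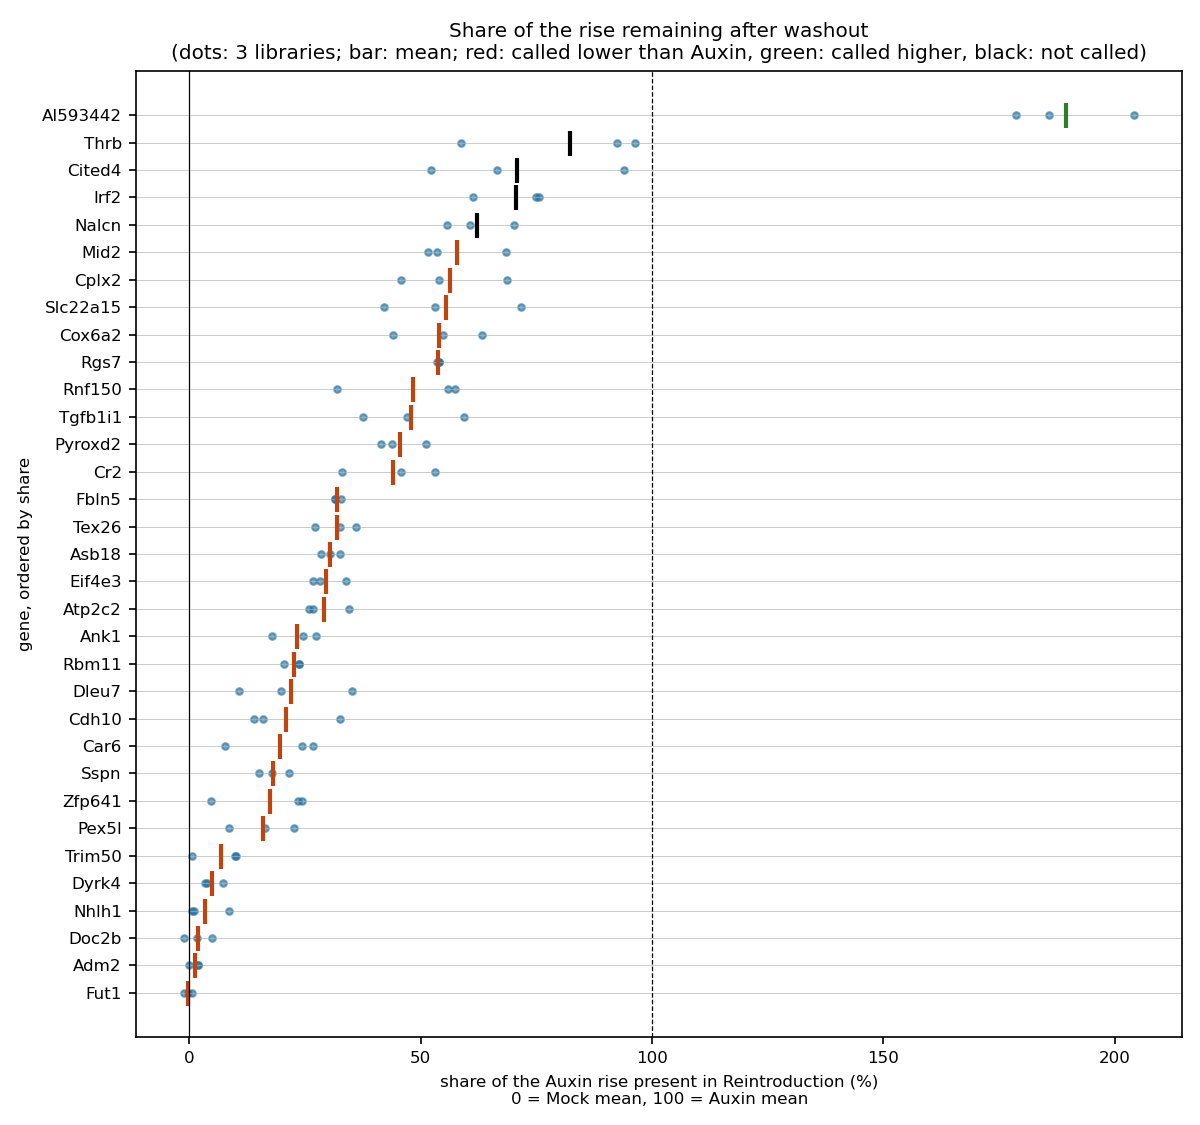
Share of the Auxin rise present in Reintroduction, in percent (x), for each of the 33 genes (y, ordered by share), with a dot for each of the 3 Reintroduction libraries and a bar for their mean, coloured by the edgeR call against Auxin. The shares spread from -0.22% for Fut1 to 82.3% for Thrb, with AI593442 apart at 189%.

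The promoters of the genes at both ends of this order are shown next. RefSeq (GRCm38.p6, the same sequence as mm10) gave a window from 250 bases before to 50 bases after the start of 24 of the 33 genes. Printed here are the windows of the 2 genes with the smallest and the 2 with the largest share among the 24, on the strand of the gene and 5′ to 3′. Capitals mark CG dinucleotides, the base step that PRC2-bound promoters are rich in.
Fut1 chr7:45617356-45617655 (+ strand): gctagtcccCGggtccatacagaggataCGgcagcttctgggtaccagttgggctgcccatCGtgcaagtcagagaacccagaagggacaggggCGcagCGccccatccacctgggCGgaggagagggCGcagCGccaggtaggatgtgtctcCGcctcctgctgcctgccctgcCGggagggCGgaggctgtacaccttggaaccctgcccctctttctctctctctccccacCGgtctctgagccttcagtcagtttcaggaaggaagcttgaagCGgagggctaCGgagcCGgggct
Adm2 chr15:89322470-89322769 (+ strand): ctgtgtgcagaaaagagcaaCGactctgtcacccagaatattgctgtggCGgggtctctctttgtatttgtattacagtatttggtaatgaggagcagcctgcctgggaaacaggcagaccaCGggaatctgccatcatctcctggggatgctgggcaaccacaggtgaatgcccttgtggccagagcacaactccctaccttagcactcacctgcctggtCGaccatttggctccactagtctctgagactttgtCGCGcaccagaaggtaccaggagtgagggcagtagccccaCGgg
Thrb chr14:17660710-17661009 (+ strand): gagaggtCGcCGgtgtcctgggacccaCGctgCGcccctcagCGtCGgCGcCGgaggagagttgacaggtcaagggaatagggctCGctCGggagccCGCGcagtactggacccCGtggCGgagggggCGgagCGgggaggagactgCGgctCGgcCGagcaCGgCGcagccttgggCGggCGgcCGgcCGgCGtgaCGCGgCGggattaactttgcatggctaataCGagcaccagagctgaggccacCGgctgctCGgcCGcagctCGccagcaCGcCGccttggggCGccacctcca
AI593442 chr9:52679388-52679687 (- strand): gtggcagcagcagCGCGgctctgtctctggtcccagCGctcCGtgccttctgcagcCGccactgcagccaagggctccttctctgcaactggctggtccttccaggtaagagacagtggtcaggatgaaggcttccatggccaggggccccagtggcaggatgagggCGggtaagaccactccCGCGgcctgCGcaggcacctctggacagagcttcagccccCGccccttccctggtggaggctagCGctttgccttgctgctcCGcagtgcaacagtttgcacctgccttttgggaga
Fut1 had 15 CG and Adm2 7, against 37 in Thrb and 12 in AI593442. Scaled by base content, as CG observed over expected, the values were 0.478, 0.312, 0.946 and 0.383. Of these 4 windows that of Thrb was by far the richest in CG, and that of AI593442 was below that of Fut1. Thrb, Fbln5 and Sspn each had a further RefSeq window, and only the first listed window of a gene was used. The further window of Thrb held 4 CG, with 0.255 observed over expected. Those of Fbln5 and Sspn had 0.457 and 0.362, against 0.776 and 0.125 in the windows used.

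Over the 24 windows the median CG observed over expected was 0.5. It was 0.189 over the 5301 windows of the other protein-coding genes under the Mock limit, 0.6 over those of all 16425 protein-coding genes with a window and 0.78 over the 9128 of genes with a Mock mean of at least 1 CPM. A value over 0.6 was held by 9 of the 24 (37.5%), against 9.9%, 50.0% and 75.7% of these sets. The 10 windows of genes with a share under 25% had a median of 0.288, the 5 with a share of 25% to under 50% had 0.581, and the 9 with 50% or more had 0.567. CG content thus spread widely within each class, from 0.084 to 0.871 in the first and from 0.171 to 0.946 in the last. Across these 24 genes, which share the same libraries, Spearman's rho of share with CG observed over expected was 0.364 and Pearson's r 0.203, and without AI593442 they were 0.421 and 0.457. With exon length, over all 33 genes, share had a rho of 0.359 and an r of 0.205, and without AI593442 these were 0.345 and 0.306. These are descriptions across genes, which are not independent replicates.

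Short motifs were searched in the same windows on both strands. TGATGNAA, a core of amino acid response elements, was in 1 of 24 windows (4.17%, that of Irf2) and in 3.5% of all protein-coding windows. The further window of Fbln5, not counted, also held it. TGACGTCA, the cAMP response element, was in none of the 24 and in 2.44% of all. GCGTG, the core bound by the aryl hydrocarbon receptor, was in 10 (41.7%) and 39.6%, and TATAAA in 2 (8.33%) and 12.8%. Over the other protein-coding genes under the Mock limit the shares were 6.07% for TGATGNAA, 0.943% for TGACGTCA, 16.8% for GCGTG and 24.6% for TATAAA. No test was made between these sets. The further window of Thrb, not counted, also held TATAAA. For 22 of the 24 genes the window's start lay within 400 bases of the gene's 5′ end in the count tables. For Cplx2 it lay 68793 bases away and for Cdh10 1382 bases, so those windows may belong to another transcript than the one counted.

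**Figure D3:**
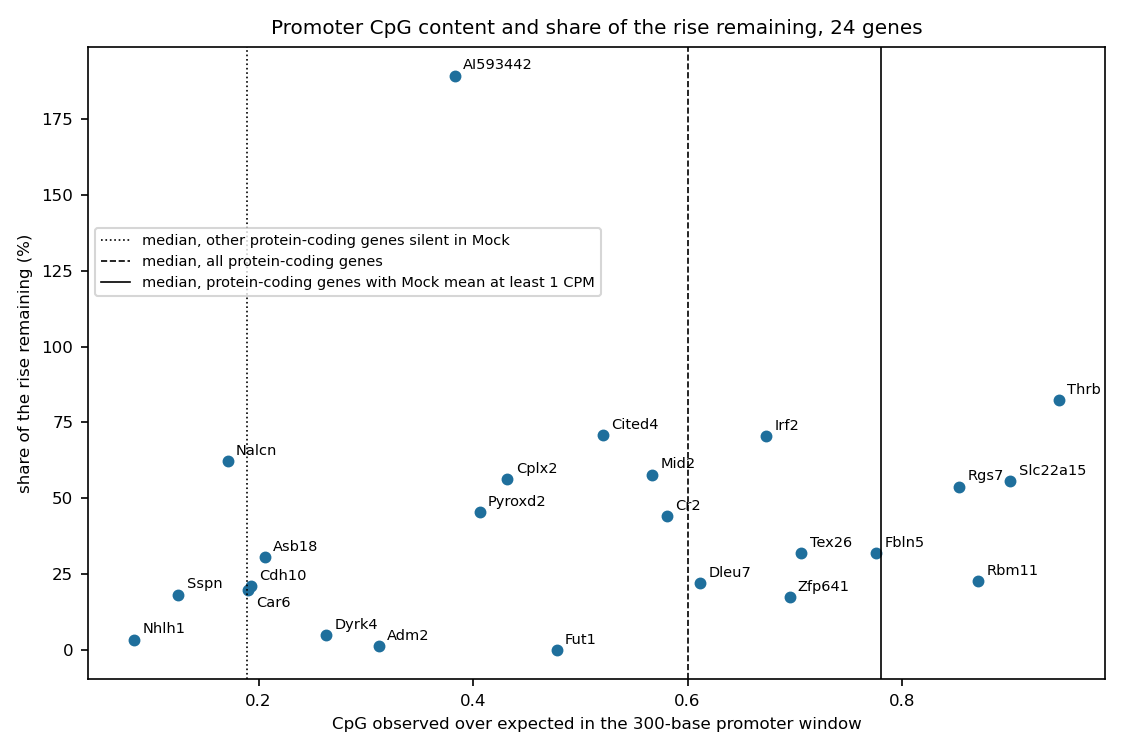
CG observed over expected in the 300-base promoter window (x) against the share of the rise remaining in percent (y) for the 24 genes with a RefSeq window, each point 1 gene, with the medians of 3 gene sets as vertical lines. The points lie on both sides of the median of all protein-coding genes, 0.6, and 3 of the 10 genes with shares under 25% lie to the right of it.

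Among the 33, 2 genes encode secreted or surface proteins of signalling. Adm2 (ENSMUSG00000054136.5, mm10 chr15:89322972-89324728) encodes intermedin, a peptide hormone of the calcitonin family, and had the highest level of the 33. It was read at 0.079, 0.0677 and 0.0522 CPM in the Mock libraries, at 7.56, 9.2 and 8.3 in the Auxin libraries and at 0.216, 0.226 and 0.0618 in the Reintroduction libraries. Every Reintroduction library lay far below every Auxin library, and 1 of the 3 within the range of Mock. Adm2 fell by 5.63 on the log2 scale from Auxin (SE 0.25, edgeR adjusted p = 2.6e-08), and 1.22 ± 1.11% of its rise remained, or 1.86% without Reintroduction replicate 3. Against Mock its log2 difference was 1.07 (SE 0.47, edgeR adjusted p = 0.0616), and under 5 of 17 alternatives it was called higher, among them without Reintroduction replicate 3 and by DESeq2.

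Cr2 encodes the complement receptor of B cells and follicular dendritic cells (ENSMUSG00000026616.15, mm10 chr1:195136811-195176716). Its Auxin libraries were at 1.94, 0.915 and 1.76 CPM, its Mock libraries at 0.0351, 0.0677 and 0.118 and its Reintroduction libraries at 0.852, 0.744 and 0.556. Auxin replicate 2 lay well below the other Auxin libraries and only just above Reintroduction replicate 1. Against Mock, whose values were picked low, Cr2 was higher by 3.21 on the log2 scale (SE 0.45, edgeR adjusted p = 7.09e-05). It fell by 1.02 from Auxin (SE 0.31, edgeR adjusted p = 0.0174), with 44.0% of its rise left. Without Auxin replicate 1, Auxin replicate 3 or Reintroduction replicate 3 it was not called against Auxin, and over all alternatives its adjusted p ran from 4.36e-04 to 0.0769.

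Transcription or RNA is where 7 of the genes act, and 4 of the 7 fell after washout while 3 were not called. Their median share was 29.6%, with a wide spread. Nhlh1, a bHLH transcription factor of developing neurons (ENSMUSG00000051251.3, mm10 chr1:172052292-172057573), was at 1.82, 1.94 and 2.08 CPM in Auxin and at 0.242, 0.0902 and 0.0989 in Reintroduction, against 0.0351, 0.0903 and 0.118 in Mock. Its Reintroduction range thus overlapped that of Mock. Nhlh1 fell by 3.60 on the log2 scale (SE 0.34, edgeR adjusted p = 6.46e-06), and 3.36 ± 4.56% of its rise remained. Leaving out Reintroduction replicate 1 gave a share of 0.73%, and leaving out Mock replicate 1 gave 2.15%. Its log2 difference from Mock was 0.84 (SE 0.49, edgeR adjusted p = 0.15).

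Thrb, a nuclear receptor for thyroid hormone, and Irf2, of the interferon regulatory factors, kept most of their rise. Thrb (ENSMUSG00000021779.16, mm10 chr14:17660960-18038088) was at 1.66, 1.14 and 1.95 CPM in Auxin, at 1.53, 1.47 and 0.964 in Reintroduction and at 0.0702, 0.0903 and 0.0914 in Mock. The Auxin and Reintroduction libraries overlapped. The share was 82.3 ± 20.6%, and 71.7% without Auxin replicate 2, which held 0.629 of the mean of the other Auxin libraries. The log2 difference from Auxin was -0.19 (SE 0.23, edgeR adjusted p = 0.52). That from Mock, whose values were picked low, was 3.83 (SE 0.32, edgeR adjusted p = 1.59e-06).

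Irf2 (ENSMUSG00000031627.9, mm10 chr8:46739732-46847458) was at 1.66, 1.5 and 1.95 CPM in Auxin and at 1.08, 1.31 and 1.3 in Reintroduction, above 0.0614, 0.181 and 0.0392 in Mock. All 3 Reintroduction libraries lay under the Auxin libraries, with a log2 difference of -0.39 (SE 0.25) that did not pass the test (edgeR adjusted p = 0.21). Cited4 encodes a coactivator that binds CBP and p300 and had a share of 70.9 ± 21.2%. Its Auxin libraries, at 1.09, 0.915 and 1.01 CPM, overlapped its Reintroduction libraries, at 0.699, 0.947 and 0.569, and the log2 difference was -0.39 (SE 0.30, edgeR adjusted p = 0.305). Cited4 sits at the edge of both limits of the rule. Irf2 and Cited4 were higher than Mock, whose values were picked low, by 3.56 (SE 0.35) and 2.79 (SE 0.40) on the log2 scale.

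Lower shares were left in the remaining genes of this group. Rbm11, a splicing regulator of brain and testis, kept 22.6%, Zfp641, a zinc finger protein, 17.4%, and Eif4e3, a cap-binding protein of the eIF4E family, 29.6%. Rbm11 was at 2.04, 2.47 and 2.08 CPM in Auxin and at 0.56, 0.564 and 0.494 in Reintroduction. Eif4e3 was at 1.97, 2.09 and 2.54 CPM in Auxin and at 0.661, 0.812 and 0.692 in Reintroduction. Neither gene's groups overlapped, and the log2 changes were -1.95 for Rbm11 (SE 0.27) and -1.54 for Eif4e3 (SE 0.20). Eif4e3 shares exon sequence with Gm20696, and counting without strand cannot tell these apart.

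Synapses and nerve excitability were represented by 5 genes, of which 4 fell after washout and 1 was not called. Their shares ran from 1.87% to 62.2%, with a median of 53.8%. The functional groups were made by hand after the values were seen, and no test was made between them. Doc2b encodes a calcium sensor of vesicle release (ENSMUSG00000020848.7, mm10 chr11:75768966-75796049) and shares exon sequence with Gm12339. It was at 0.0351, 0.0451 and 0.0522 CPM in Mock, at 1.74, 2.02 and 1.84 in Auxin and at 0.0254, 0.135 and 0.0742 in Reintroduction. Reintroduction replicate 1 lay below all of Mock and the other two lay above it. Doc2b fell by 4.63 on the log2 scale (SE 0.33, edgeR adjusted p = 8.58e-07) and kept 1.87 ± 3.02% of its rise. The share was 0.31% without Reintroduction replicate 2 and 3.32% without Reintroduction replicate 1. The log2 difference from Mock was 0.54 (SE 0.55, edgeR adjusted p = 0.394).

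Cplx2, the complexin that binds SNARE complexes and controls vesicle fusion (ENSMUSG00000025867.8, mm10 chr13:54371349-54383917), kept 56.2 ± 11.6%. It was at 0.0263, 0.0677 and 0.0783 CPM in Mock, at 3.26, 3.06 and 3.04 in Auxin and at 1.46, 1.71 and 2.16 in Reintroduction. The 3 groups did not overlap. The fall from Auxin was 0.73 on the log2 scale (SE 0.18, edgeR adjusted p = 0.00507). Reintroduction stayed 4.87 above Mock, whose values were picked low (SE 0.29, edgeR adjusted p = 1.18e-07). Both genes act in vesicle release, and the ranges of their shares over the Reintroduction libraries, -1.03% to 5.00% for Doc2b and 45.9% to 68.8% for Cplx2, did not meet.

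Nalcn, the sodium leak channel, was at 1.4, 0.818 and 1.26 CPM in Auxin and at 0.827, 0.722 and 0.667 in Reintroduction. Auxin replicate 2 lay within the Reintroduction range. The log2 difference of -0.57 was not called (SE 0.24, edgeR adjusted p = 0.0686), and without that library it was -0.77 and was called (edgeR adjusted p = 0.011). Rgs7, a brain protein that shortens G protein signals, kept 53.8 ± 0.28%, and Pex5l, an auxiliary subunit of HCN channels, kept 15.9 ± 6.98%. Both fell from Auxin, by 0.77 (SE 0.24) and 2.27 (SE 0.25) on the log2 scale. The call of Rgs7 was lost without Auxin replicate 1, Reintroduction replicate 1 or Reintroduction replicate 3.

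Genes of muscle or the membrane skeleton numbered 3, and all 3 fell from Auxin and stayed above Mock. All 3 also share exon sequence with another gene. Cox6a2 encodes the heart and skeletal muscle form of a cytochrome c oxidase subunit (ENSMUSG00000030785.8, mm10 chr7:128205435-128206387) and was nearest to 0 in Mock, with 0, 1 and 0 counts. It had 160, 182 and 161 counts in Auxin and 103, 67 and 85 in Reintroduction, which are 2.09, 2.52 and 2.54 CPM against 1.31, 1.51 and 1.05. No fold against Mock is given, since the Mock level rests on 1 count and was picked low. Cox6a2 fell by 0.82 on the log2 scale from Auxin (SE 0.19, edgeR adjusted p = 0.00361) and kept 54.1 ± 9.70% of its rise. Itgad, the gene whose exons it shares, had 3 counts in 1 Auxin library and none in the other two.

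Sspn encodes sarcospan, a membrane part of the dystrophin complex, and Ank1 the ankyrin of the red cell membrane skeleton and of muscle. Sspn was at 1.4, 1.44 and 1.56 CPM in Auxin and at 0.242, 0.338 and 0.284 in Reintroduction, against 0, 0 and 0.0783 in Mock. Its share was 18.2 ± 3.36%, and that of Ank1 was 23.3 ± 4.89%. Sspn fell by 2.29 (SE 0.39) and Ank1 by 1.75 (SE 0.23) on the log2 scale. The muscle marker list had lower sums in Auxin and Reintroduction than in Mock, as given above.

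Another 3 genes belong to matrix and adhesion, and all 3 fell from Auxin and stayed above Mock. Fbln5 encodes fibulin-5, which is needed to assemble elastic fibres (ENSMUSG00000021186.8, mm10 chr12:101746565-101819055). It was at 0.0263, 0 and 0.0522 CPM in Mock, at 3.8, 4.56 and 4.29 in Auxin and at 1.35, 1.35 and 1.4 in Reintroduction. The Reintroduction libraries were nearly equal, at 32.0 ± 0.64% of the rise. Fbln5 fell by 1.54 on the log2 scale (SE 0.18, edgeR adjusted p = 3.95e-05). It stayed 5.55 above Mock (SE 0.35, edgeR adjusted p = 2.03e-07), where its counts of 3, 0 and 4 were picked low.

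Cdh10, a type II cadherin of neurons, kept 20.9 ± 10.2% and Tgfb1i1, the focal adhesion adaptor Hic-5, kept 48.0 ± 10.98%. Their log2 changes from Auxin were -1.96 (SE 0.30) and -0.90 (SE 0.26). The call of Tgfb1i1 was lost without Reintroduction replicate 1. Tgfb1i1 lies 40.4 kb from Cox6a2 on chromosome 7, and no other pair of the 33 lay closer than 3002 kb. Between the pair, 9130023H24Rik was at 1.31 CPM in Mock, 4.19 in Auxin and 2.01 in Reintroduction, and Armc5 at 18.3, 21.3 and 16.4 CPM.

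Ubiquitin ligases, proteins related to them and kinases were encoded by 5 genes, and all 5 fell from Auxin. Trim50, an E3 ligase of the TRIM family (ENSMUSG00000053388.10, mm10 chr5:135353295-135368005), was at 0.0965, 0.113 and 0 CPM in Mock, at 2.56, 2.99 and 2.63 in Auxin and at 0.331, 0.338 and 0.0865 in Reintroduction. Reintroduction replicate 3 lay within the range of Mock and the other two lay above it. Trim50 fell by 3.42 on the log2 scale (SE 0.43, edgeR adjusted p = 5.49e-05) and kept 6.84 ± 5.38%. Its log2 difference from Mock was 1.53 (SE 0.64, edgeR adjusted p = 0.0536), and it was called under 6 of 17 alternatives, among them without Auxin replicate 2 and without Reintroduction replicate 3.

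Dyrk4, a dual-specificity kinase, was at 1.12, 1.9 and 1.43 CPM in Auxin and at 0.102, 0.158 and 0.111 in Reintroduction, beside 0.105, 0.0451 and 0.0131 in Mock. It fell by 3.55 on the log2 scale (SE 0.40) and was called higher than Mock under 1 of 17 alternatives, that without Mock replicate 1. Mid2, a TRIM ligase that binds microtubules, kept 57.8 ± 9.38%, with Auxin libraries at 2.35, 1.76 and 1.86 CPM and Reintroduction libraries at 1.37, 1.04 and 1.08. Its fall of 0.69 on the log2 scale (SE 0.24, edgeR adjusted p = 0.0308) was lost without Auxin replicate 1, Reintroduction replicate 2 or Reintroduction replicate 3. Rnf150, a RING finger protein, kept 48.4% and Asb18, an ankyrin repeat and SOCS box protein, 30.5%.

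Enzymes or transporters are encoded by 5 genes, and all 5 fell from Auxin. Fut1, the fucosyltransferase that makes the H antigen (ENSMUSG00000008461.6, mm10 chr7:45617289-45621059), fell furthest of the 33 on the log2 scale. Its counts were 5, 2 and 2 in the Mock libraries, 196, 212 and 165 in the Auxin libraries and 2, 0 and 4 in the Reintroduction libraries. In CPM these are 0.0439, 0.0226 and 0.0261, then 2.56, 2.94 and 2.6, then 0.0254, 0 and 0.0494. The share of the rise was -0.22 ± 0.93%, and it ran from -0.68% without Reintroduction replicate 3 to 0.25% without Reintroduction replicate 2. Reintroduction could not be told from Mock at this depth, with a log2 difference of -0.26 (SE 0.67, edgeR adjusted p = 0.764). The fall from Auxin was 6.37 on the log2 scale (SE 0.34, edgeR adjusted p = 9.85e-08).

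Atp2c2, a Golgi pump for calcium and manganese, kept 29.1 ± 4.72%, and Car6, the secreted carbonic anhydrase of saliva, 19.6 ± 10.4%. Pyroxd2, an oxidoreductase domain protein, kept 45.5 ± 5.01%, and 39.7% without Auxin replicate 2. Slc22a15, a carrier of the organic cation family, kept 55.6 ± 15.0%, and its fall of 0.71 on the log2 scale (SE 0.22) was not called without Auxin replicate 1, Reintroduction replicate 1 or Reintroduction replicate 3. All 4 stayed above Mock.

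The remaining 3 genes are little studied. AI593442 (ENSMUSG00000078307.2, mm10 chr9:52673044-52679429) was alone among the 33 in rising further. It was at 0.0702, 0.135 and 0.0783 CPM in Mock, at 2.37, 1.57 and 2.22 in Auxin and at 3.73, 3.59 and 4.09 in Reintroduction. Every Reintroduction library lay above every Auxin library. AI593442 rose by 0.97 on the log2 scale from Auxin (SE 0.17, edgeR adjusted p = 5.34e-04), and without Auxin replicate 2, its lowest Auxin library, by 0.80 (edgeR adjusted p = 2.81e-04). Over all genes tested 25.5% were called higher in this comparison. Tex26 kept 31.9 ± 4.53% and Dleu7, which shares exon sequence with Rnaseh2b, 21.9 ± 12.4%, and both fell from Auxin.

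**Figure D4:**
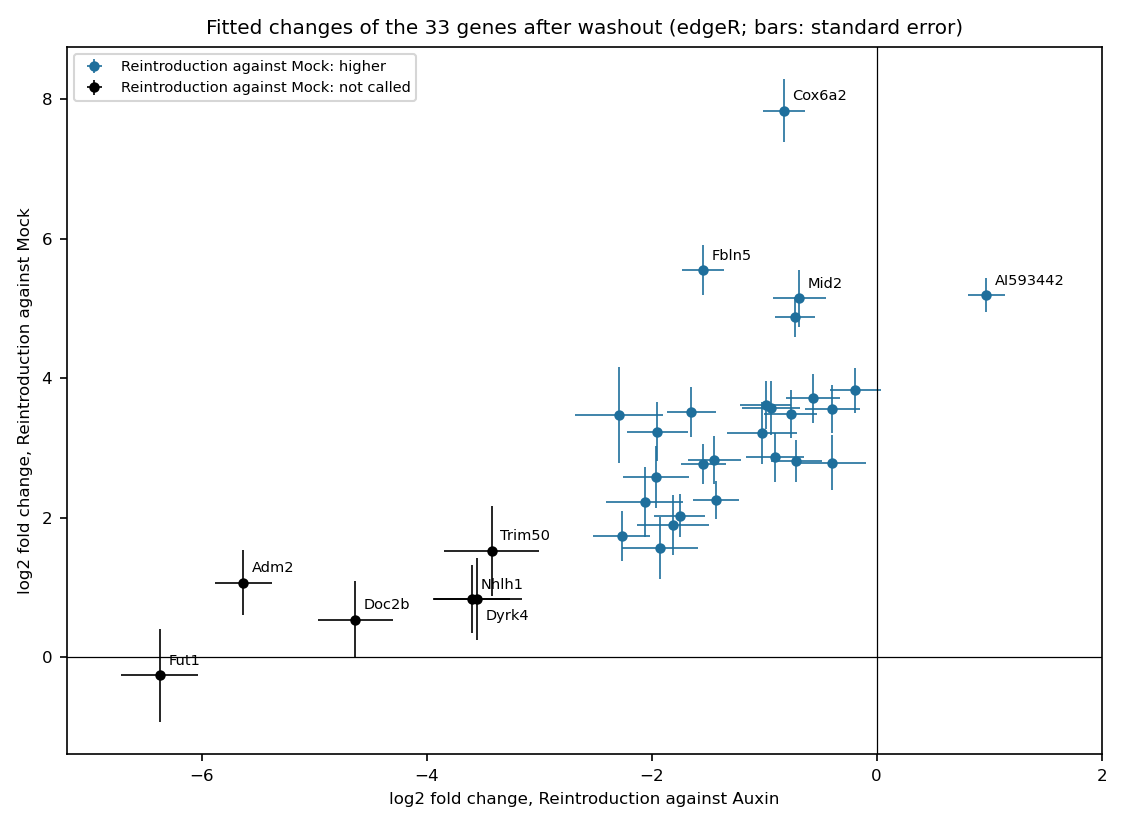
Log2 fold change of Reintroduction against Auxin (x) and against Mock (y) from the edgeR fit for the 33 genes, each point 1 gene with its standard errors as bars, coloured by the call against Mock. The 6 genes not called against Mock lie at log2 fold changes of -3.42 to -6.37 against Auxin, and AI593442 alone lies right of 0. The height of Cox6a2 rests on 1 count in Mock and is no measured fold.

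Over the 33 genes Auxin replicate 2 was not shifted as a whole. Its median ratio to the mean of the other Auxin libraries was 0.996. Its summed CPM of 62.1 lay between theirs, 61.4 and 63.7. It was far from the other Auxin libraries in single genes. Its level was 0.494 of their mean for Cr2, 0.615 for Nalcn, 0.629 for Pyroxd2 and Thrb and 0.683 for AI593442, and 1.48 times their mean for Dyrk4. These are the most distant values among the 33. It was the lowest of the 3 Auxin libraries in 13 of the 33, where an even split would give 1 gene in 3. Without it 29 genes were called lower in Reintroduction than in Auxin, in place of 28. Why it differed in those genes was not tested.

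Genes next to the 33 were often higher in Auxin too. Of their 65 nearest protein-coding neighbours on either side, 50 passed the count filter, 29 of these (58.0%) were called higher in Auxin against Mock and 17 lower, beside 38.4% and 34.8% of all genes tested. The median log2 fold change of the 50 was 0.36. Fgf21, a hormone of the fasting response that lies 1.8 kb from Fut1, had 0 CPM in Mock, 0.663 in Auxin and 0.0127 in Reintroduction. Bhlhe41, a bHLH repressor next to Sspn, was at 0.388, 8.17 and 0.716 CPM, and Itpr2, the calcium release channel on the other side of Sspn, at 0.426, 3.42 and 0.809. Tsc22d3, a glucocorticoid-induced gene next to Mid2, was at 2.08, 23.3 and 4.82 CPM, while Mid2 kept more of its rise. Gbx2, a homeobox gene next to Asb18, was lower in Auxin, at 3.6 CPM against 19.6 CPM in Mock. These neighbours were named after their values were seen.

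By lists that match the first letters of gene names, 4 of the 33 were among 1408 metabolic enzymes and transporters and 3 among 991 transcription factors. The list of cytoskeleton, muscle and cilia (640 genes) held 3, Trim50, Cox6a2 and Asb18, and that of secreted ligands and receptors (724) held 2. There was 1 each on those of synapse and channels (488), adhesion (302), matrix (405) and germline genes (290). None was among 625 immune, blood and endothelial genes. The rule picked 33 of all 21683 protein-coding genes. A name match does not give a function. Trim50 and Asb18 are grouped above with ubiquitin ligases, and Nhlh1 and Cr2 are missed by the transcription factor and immune lists. On the list of transcription factors, 366 of 795 tested genes were higher and 195 lower in Auxin against Mock, with a median log2 fold change of 0.28. From Auxin to Reintroduction 219 rose and 240 fell, with a median of 0.01, and the medians of the other lists in this comparison ran from -0.19 to -0.01. The medians of all genes tested were 0.05 in the first comparison and 0.003 in the second.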

How the data were processed

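Polyadenylated RNA of 9 libraries was sequenced in paired ends, per the labels' protocols. The deposited values are raw counts per gene, made by the authors with featureCounts 2.0.6 over exons in paired-end mode, per the file headers, on mm10. The submitters' processing notes also name Trim Galore 0.6.10, FastQC 0.12.1, Bowtie2 2.5.3 and SAMtools 1.20. The headers give no strand setting and no request to count pairs once, so each mate was counted. More genes had an even count of 2 to 10 than an odd one of 1 to 9 in all 9 libraries (3926 against 2861 genes in Mock replicate 1). Strand was not used, so counts are uncertain for 9924 genes whose exons overlap those of another gene, 9 of the 33 among them.

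A symbol table matched by gene identifier named 48058 of 48440 genes, and GENCODE M21 gave biotypes. Genes passing filterByExpr (20838) entered 1 edgeR 4.0.16 quasi-likelihood fit over all 9 libraries in R 4.3.3, with TMM scaling and group as the only term. Tests were two-sided, p-values were adjusted by Benjamini-Hochberg over all genes tested, and calls required an adjusted p under 0.05. Standard errors (SE) come from the F statistic. Means are given ± SD over 3 libraries, and a share's SD is over the 3 Reintroduction libraries. P-values measure the spread between these libraries, which may be partly technical. In simulated counts for the 20838 genes with 200 changed by 2-fold, 73.5% were recovered in Reintroduction against Auxin, with 7.5% false calls, and 73.0% and 5.2% in Reintroduction against Mock. DESeq2 1.42.0, other scalings, filters and limits, and fits without each library were tried as alternatives.

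The members, gene lists and tests were chosen with earlier results of these data known, and the functional groups were assigned by hand after the values were seen. Named genes were the 10 with the highest Auxin RPKM. Among those of at least 2 CPM in Auxin, the 6 with the largest and the 6 with the smallest share were named. Only 9 genes reach 2 CPM, so these choices overlap and take in all 9. The 3 highest in each list with at least 3 members and the 3 genes on either side of each limit were named too. Outside the Mock limit only genes with an Auxin mean over 10 times Mock were considered. The other members are named because all 33 are accounted for.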

Additional observations from a re-analysis of the deposited data

How the results depend on the processing

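The count of genes that met the rule depends on its limits. It was 14 with a Mock mean under 0.05 CPM, 105 with one under 0.2 CPM, 116 with an Auxin mean of at least 0.5 CPM and 9 with one of at least 2 CPM, in place of 33. It was 26 with TMM-scaled CPM, all of them among the 33, 24 with the trend over gene length removed (chosen after seeing the data), and 28 to 36 with 1 Mock or Auxin library left out. Of the 33, 28 fell from Auxin to Reintroduction, and 24 to 29 did so with 1 library left out. With the replicate block it was 28. With at least 1 CPM required in 3 libraries it was 22 of the 25 genes still tested, and without genes that share exons 19 of 24. Higher than Mock were 27, and 27 to 29 with 1 library left out, 28 with the replicate block (Trim50 in addition), 19 of 25 and 19 of 24. Same-numbered libraries did not deviate together (correlations from -0.546 to 0.45), so the numbers do not pair the libraries. The median share was 28.6% to 32.2% under every alternative run. Of 330 shares of single genes recomputed with TMM scaling or 1 library left out, 317 moved by less than 1 SD and 13 by more. The share of Fut1, -0.22%, turned to 0.02% without Mock replicate 1 and to 0.25% without Reintroduction replicate 2, both within its SD. Under total-count scaling the all-gene median log2 fold change was 0.26 in place of 0.05 in Auxin against Mock and 0.16 in place of 0.03 in Reintroduction against Mock. With 1 to 26 counts a gene in Mock, depth limits every comparison with Mock.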

Other observations

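Genes of other biotypes that met the same limits numbered 9. They were 4 loci that the annotation marks as awaiting experimental proof, 2 pseudogenes, a long intergenic RNA, an RNA from a shared promoter and Ighm. Ighm encodes the constant part of the IgM heavy chain, an antibody chain of B cells, and its counts were 10, 2 and 5 in the Mock libraries, 147, 171 and 129 in the Auxin libraries and 60, 23 and 31 in the Reintroduction libraries. It fell by 1.84 on the log2 scale after washout (SE 0.27, edgeR adjusted p = 1.86e-04), with 24.2% of its rise left. It stayed 3.04 above Mock, whose values were picked low (SE 0.41, edgeR adjusted p = 5.53e-05). Cr2, another gene of B cells, kept 44.0%. On the list of immune, blood and endothelial genes, 96 of 249 tested were called higher in Auxin against Mock and 92 lower (edgeR). Over all genes tested the shares were 38.4% and 34.8%. The long intergenic RNA Gm45847 had 360, 372 and 298 counts in Auxin and 11, 5 and 15 in Reintroduction, and kept 1.51% of its rise. It shares exon sequence with Gm45846. Gm38057 had a share of 90.0%, with a log2 difference from Auxin of -0.06 (SE 0.33, edgeR adjusted p = 0.89). Its Auxin level was 1.44 ± 0.648 CPM, with Auxin replicate 2 far below the other Auxin libraries. That library lowers the Auxin mean and so raises the share. The share of Gm38057 without it was not computed, so how much of the rise was lost stays uncertain.

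The family names left out held 5 genes that met the limits. Tbx5, a T-box factor of heart and forelimb, kept 76.2% of its rise and was not called against Auxin (edgeR adjusted p = 0.249). Col4a5, a collagen of basement membranes, kept 56.5%, Hoxd9 45.8%, Hoxd8 26.8% and Hoxa5 24.7%, and these 4 fell. With the limits reversed, a mean under 0.1 CPM in Auxin and of at least 1 CPM in Mock, 8 genes were found.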
